A study of Mus musculus with 18 samples.

Results

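The genes described here are the Wnt ligands, their receptors and co-receptors, the R-spondin arm, the secreted inhibitors and a few intracellular transducers of the pathway, as measured by bulk RNA-seq in mouse exorbital lacrimal glands (LGs). They were defined by a rule on gene symbols, chosen with earlier results of these data known. The rule takes in all Wnt, Fzd, Sfrp, Dkk and Rspo genes and Lgr4 to Lgr6. It also takes in Axin1, Axin2, Lrp5, Lrp6, Wif1, Ctnnb1, Tcf7l1, Tcf7l2, Znrf3 and Rnf43. The rule found 55 of the 23337 genes in the count table. Of these, 33 had enough reads for a test, 22 did not, and 6 of the 22 had no read in any library. The set holds 19 ligands, 12 receptors and co-receptors, 9 genes of the R-spondin arm, 10 secreted inhibitors and 5 transducers.

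Glands came from male mice of 2 inbred strains. NOR/LtJ mice develop autoimmune dacryoadenitis and serve as a model of Sjogren's disease, and BALB/c mice were the healthy control strain. Each strain was sampled at 3 weeks (before disease), 8 weeks (early disease) and 16 weeks (more advanced disease), with 3 libraries in each of the 6 groups. Titles of the diseased strain's samples read NOD, whereas the genotype label and the study name NOR/LtJ, and the libraries are called NOR here. No gene was altered and no agent was given, so every strain difference is one between whole inbred genomes. By the study's methods, a 3-week library was 1 mouse and an 8- or 16-week library was a pool of 2 to 3 mice, so age and pooling changed together between 3 and 8 weeks. In such bulk samples, fewer cells of a type and less RNA per cell cannot be told apart.

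Wnt proteins are lipid-modified secreted ligands that bind Frizzled receptors. With the co-receptors Lrp5 and Lrp6, this stops the destruction complex, built on Axin, from degrading beta-catenin, which then acts with Tcf and Lef factors on target genes such as Axin2. Other ligands, Wnt5a among them, mostly act through Frizzled and Ror receptors without beta-catenin. Secreted frizzled-related proteins (Sfrp) and Dkk proteins hold ligands or co-receptors in check, and R-spondins, through Lgr receptors, relieve the removal of Frizzled by the ubiquitin ligases Rnf43 and Znrf3. In lacrimal and salivary glands the pathway is known for its part in branching and in the balance of duct and acinus formation.

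Libraries held 6378613 to 20493076 reads assigned to genes, of which 2891 to 11057 fell on the 55 genes. Levels are given as CPM, the reads of a gene scaled to library depth, with TMM-scaled library sizes, and levels of different genes are compared only as RPKM, which also divides by exon length. A gene passed the test where the adjusted p of edgeR's quasi-likelihood test, by Benjamini-Hochberg over the 13376 genes tested, was at most 0.05. Lymphocyte transcripts separated the groups: the sum of 7 T cell markers was 0.316 to 1.82 CPM in all BALB/c and 3-week NOR libraries, 10.8 to 25.1 CPM in NOR glands at 8 weeks and 55.5 to 136 CPM at 16 weeks. The sum of 5 B cell markers was 109 to 360 CPM in NOR glands at 16 weeks and at most 4.56 CPM in BALB/c glands at any age. Acinar markers were present in each library (summed 2780 to 10200 CPM). Transcripts of 5 parotid gland markers ranged from 1.26 to 54400 CPM in sum and exceeded 10000 CPM in replicates 2 and 3 of NOR at 3 weeks, replicate 2 of NOR at 8 weeks and replicate 2 of BALB/c at 3 weeks. Counts without these 4 libraries stand beside the results they change.

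By level, the transducers and receptors outweighed the ligands. Ctnnb1, which encodes beta-catenin, had the highest mean level over the 18 libraries (64.3 RPKM). The inhibitor Sfrp5 averaged 9.03 RPKM and the scaffold Axin1 8.63 RPKM, but Sfrp5 was the higher only in BALB/c glands. In NOR glands at 16 weeks Sfrp5 averaged 2.59 ± 0.50 RPKM (SD, n = 3) and Axin1 7.95 ± 0.43 RPKM. Among receptors Fzd6 had the highest mean over all libraries (5.81 RPKM), ahead of the co-receptor Lrp6 (4.67 RPKM), although in NOR glands at 16 weeks Fzd6 read 2.73 to 3.08 RPKM and Lrp6 3.85 to 5.17 RPKM. By the same mean Rnf43 led the R-spondin arm (4.36 RPKM). Wnt4 was the highest ligand at only 0.607 RPKM.

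**Figure D1:**
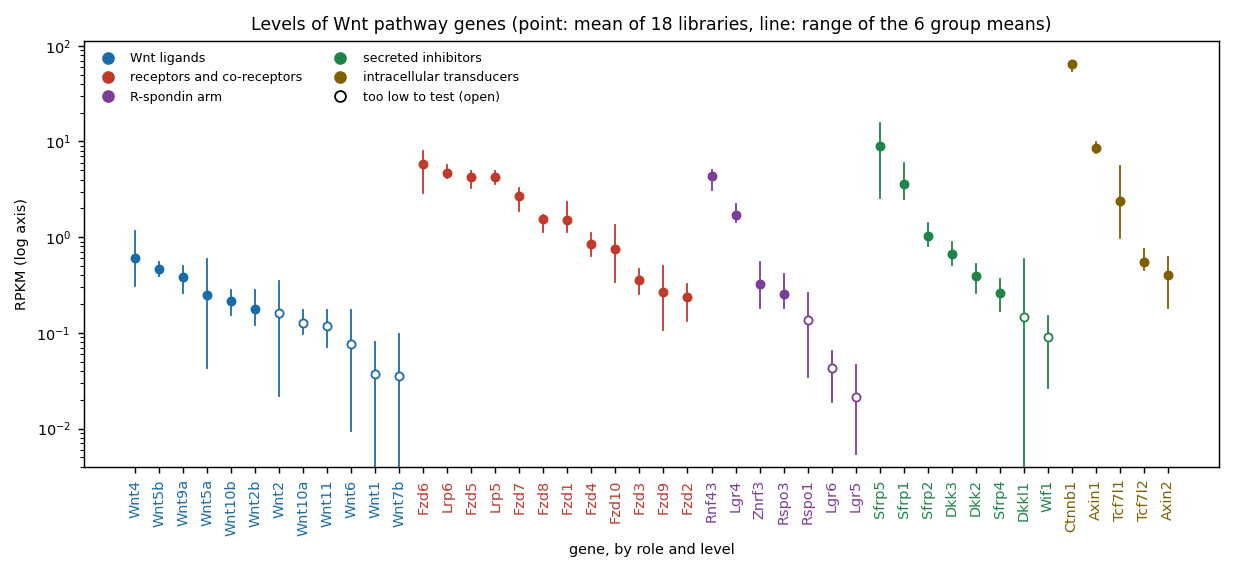
Level of each Wnt pathway gene in RPKM on a log axis, ordered by role and level, for the 44 genes with at least 10 reads in all. Points are means of 18 libraries and lines span the 6 group means, reaching the axis where a group was at or near 0. Ctnnb1 stands at 64.3 RPKM, whereas no ligand exceeds 0.607 RPKM on average.

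Promoters were read from RefSeq (GRCm38.p6) for the 36 genes of the set that have an entry there. Each window runs from 250 bases before to 50 bases after the transcription start. Windows were searched on both strands for 4 words of 7 letters that spell the core bound by Tcf and Lef factors: AACAAAG, then ATCAAAG, then TACAAAG and lastly TTCAAAG. At least 1 of these words stood in the windows of 6 of the 36 genes (16.7%), beside 18.9% of all 27025 genes with a window. The 3 windows below are shown because the results turn on their genes. Of the genes that passed a strain comparison and have a window, Fzd7 alone has a word in it. Wnt5a, Fzd6, Sfrp1, Axin1, Lrp6 and Fzd2 passed a strain comparison but have no window. Axin2 is the widely used reporter gene of the pathway, and Sfrp5 is the inhibitor with the largest fall. Capitals mark the word, and Axin2 and Sfrp5 have none in this window, which says only that these letters are absent there.
Fzd7 (chr1:59481897-59482196, plus strand): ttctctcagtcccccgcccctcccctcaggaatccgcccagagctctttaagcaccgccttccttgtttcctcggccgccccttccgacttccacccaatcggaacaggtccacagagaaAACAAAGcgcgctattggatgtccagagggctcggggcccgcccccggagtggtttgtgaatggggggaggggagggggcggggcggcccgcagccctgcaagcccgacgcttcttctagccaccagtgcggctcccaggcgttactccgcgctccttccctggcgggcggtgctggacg
Axin2 (chr11:108920099-108920398, plus strand): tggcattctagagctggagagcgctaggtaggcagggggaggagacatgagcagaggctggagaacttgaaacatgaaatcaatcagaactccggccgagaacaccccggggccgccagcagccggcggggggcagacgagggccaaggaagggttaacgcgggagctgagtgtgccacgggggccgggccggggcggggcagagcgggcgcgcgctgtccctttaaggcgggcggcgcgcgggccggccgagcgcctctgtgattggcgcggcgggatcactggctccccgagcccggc
Sfrp5 (chr19:42202203-42202502, minus strand): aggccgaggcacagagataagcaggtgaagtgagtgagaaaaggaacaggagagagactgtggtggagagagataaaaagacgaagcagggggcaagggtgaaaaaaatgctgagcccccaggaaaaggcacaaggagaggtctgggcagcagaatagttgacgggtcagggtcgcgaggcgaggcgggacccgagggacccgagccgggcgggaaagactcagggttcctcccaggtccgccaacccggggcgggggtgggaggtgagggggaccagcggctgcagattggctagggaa

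The first question was how the strains differed at each age. At 3 weeks, before lymphocyte markers rose, few genes of the set differed: Wnt5a and the receptor Fzd10 were higher in NOR glands, and Sfrp5 and the repressor Tcf7l1 were lower. These 4 of 33 genes (12.1%) compare with 15% of all genes tested, of which 7.95% were higher and 7.03% lower. At 8 weeks 12 passed (36.4%, beside 27.8% of all genes), 6 of them higher (16.4% of all genes) and 6 lower (11.4%) in NOR glands. At 16 weeks 19 passed (57.6%, beside 50.9%), 8 higher (25.5% of all genes) and 11 lower (25.4%). Read against those shares, the set held somewhat fewer calls than all genes at 3 weeks and somewhat more at 8 and 16 weeks, a difference that was not tested. Counting only changes of 2-fold or more, 4, 4 and 8 of the 33 genes passed at 3, 8 and 16 weeks, beside 5.26%, 11.6% and 19.4% of all genes, and these were 9 different genes. The median log2 fold change of the set was 0.02, -0.01 and -0.11 at the 3 ages, beside 0.01, 0.02 and -0.01 for all genes.

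By age pattern, 4 genes passed at all 3 ages in one direction, 8 at 8 and 16 weeks and 7 at 16 weeks only, while 14 passed at none. No gene passed in both directions. The fit that follows also tested Dkkl1, Rspo1, Wnt2, Wnt7b and Wnt11, which had too few reads in the main fit. Its 16-week count includes Dkkl1, Rspo1 and Wnt2. Without the 4 libraries rich in parotid transcripts, which leaves 1 NOR library at 3 weeks that is assumed to vary like the other groups, Tcf7l1 alone still passed at 3 weeks, and the counts at 8 and 16 weeks were 11 and 22. In that fit 5.32%, 23.3% and 50% of all genes passed at the 3 ages.

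**Figure D2:**
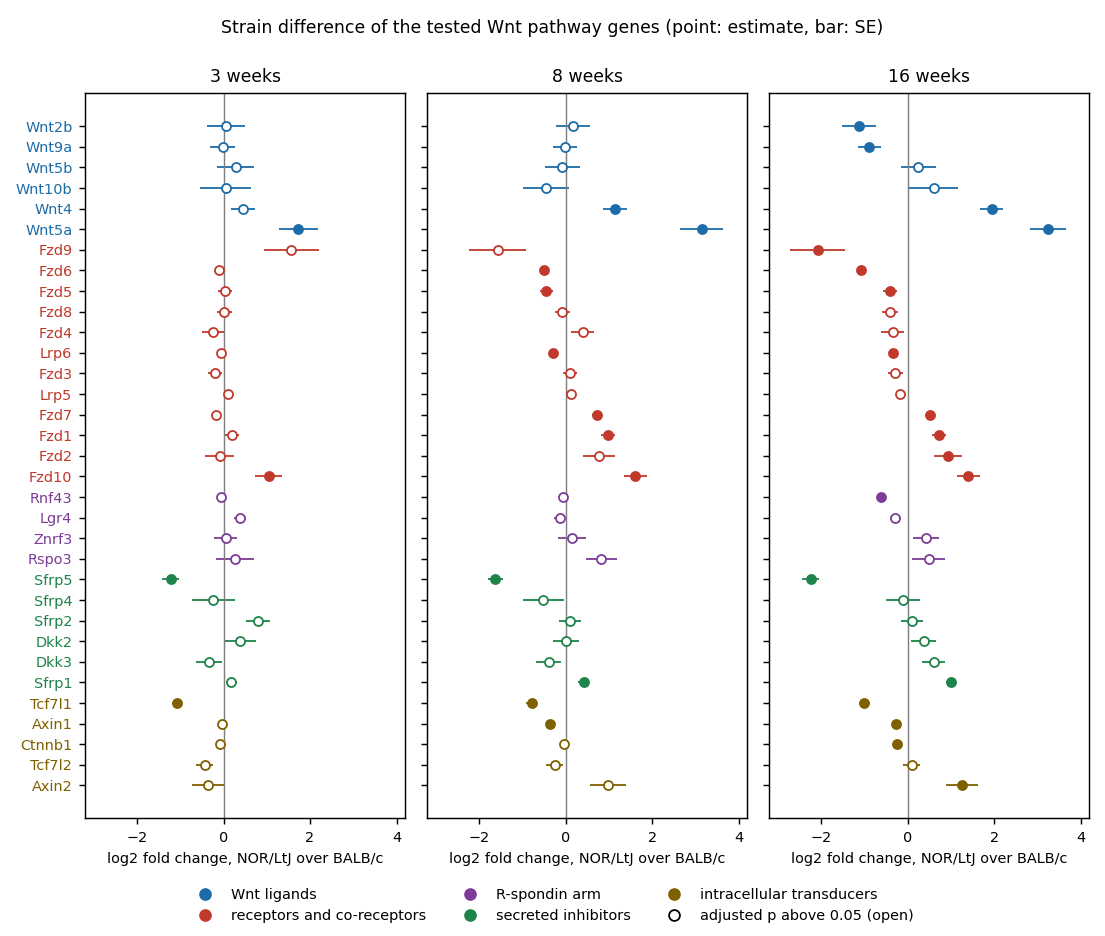
Log2 fold change of NOR/LtJ over BALB/c at 3, 8 and 16 weeks for the 33 tested genes, coloured by role and ordered within a role by the 16-week value. Bars are standard errors, and filled points have an adjusted p of at most 0.05. Wnt5a lies farthest to the right at 16 weeks (3.24) and Sfrp5 farthest to the left (-2.24).

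Of the ligands, Wnt5a and Wnt4 were higher in NOR glands and Wnt2b and Wnt9a were lower, the last 3 changing at later ages. Wnt5a (chr14:28505473-28525515, mm10), best known for signalling without beta-catenin, read 0.928, 1.71 and 1.76 CPM in the 3 NOR libraries at 3 weeks and 0.274, 0.807 and 0.253 CPM in the BALB/c libraries. At 8 weeks it read 2.11, 1.55 and 1.29 CPM in NOR and 0.236, 0.21 and 0.113 CPM in BALB/c glands, and at 16 weeks 2.76, 3.21 and 1.7 CPM against 0.19, 0.228 and 0.384 CPM. Each NOR library exceeded each BALB/c library of its age. The log2 fold change was 1.73 ± 0.46 (SE) at 3 weeks, 3.14 ± 0.49 at 8 weeks and 3.24 ± 0.42 at 16 weeks (edgeR adjusted p of 0.0136, 7.85e-05 and 3.93e-06). Raw counts were low, from 2 to 10 reads in a BALB/c library and from 10 to 82 in a NOR library. At 3 weeks the call was lost in 3 of the 6 fits that left out 1 library (adjusted p up to 0.0756), and in the fit without parotid-rich libraries (log2 fold change of 1.77, adjusted p = 0.137).

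Wnt4 (chr4:137277635-137299501), a ligand of epithelial tubule formation, read 2.28, 2.28 and 3.16 CPM in NOR and 1.7, 2.42 and 1.46 CPM in BALB/c libraries at 3 weeks, where the groups overlapped. It read 2.4, 3.04 and 2.47 CPM against 1.18, 0.979 and 1.41 CPM at 8 weeks, and 4.35, 5.68 and 3.4 CPM against 0.807, 1.22 and 1.54 CPM at 16 weeks. The strains were apart at both later ages. Its log2 fold change was 0.45 ± 0.28 at 3 weeks (edgeR adjusted p = 0.334), 1.13 ± 0.28 at 8 weeks (adjusted p = 0.00446) and 1.94 ± 0.26 at 16 weeks (adjusted p = 6.11e-06).

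Wnt2b (chr3:104944805-104961709), a ligand usually made by mesenchyme, differed at 16 weeks, with 0.414, 0.47 and 0.425 CPM in NOR and 0.855, 1.45 and 0.72 CPM in BALB/c libraries. NOR values at 3 and 8 weeks ran from 0.527 to 0.744 CPM, within the BALB/c range of 0.316 to 0.875 CPM. The 16-week log2 fold change was -1.13 ± 0.39 (edgeR adjusted p = 0.0219). This rests on 4 to 19 reads a library, and DESeq2 did not call it (adjusted p = 0.0769), nor did 4 of the 6 fits with 1 library left out. Wnt9a, another canonical ligand, read 0.759, 1.1 and 0.744 CPM in NOR and 1.52, 1.67 and 1.82 CPM in BALB/c glands at 16 weeks (log2 fold change of -0.89 ± 0.27, adjusted p = 0.0107). Wnt5b and Wnt10b were tested and passed at no age.

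The remaining 13 ligands had too few reads for the test. Wnt7a, Wnt8a and Wnt8b had no read in any library, and Wnt3, Wnt3a, Wnt9b and Wnt16 had at most 3 reads in a library. Counts per library ran from 0 to 15 for Wnt2, 0 to 9 for Wnt10a, 1 to 23 for Wnt11, 0 to 6 for Wnt6, 0 to 5 for Wnt1 and 0 to 15 for Wnt7b. Wnt2, a mesenchymal ligand, had 2, 0 and 0 reads in NOR and 10, 5 and 2 reads in BALB/c libraries at 16 weeks, a ratio of 0.159 on summed reads (95% exact interval of 0.0178 to 0.669, counting error only). Wnt1 had no read in NOR glands at 16 weeks and 9 in BALB/c glands, a ratio whose 95% exact interval runs from 0 to 0.684. Some others went the other way at that age. NOR and BALB/c sums were 22 and 9 for Wnt7b, 16 and 6 for Wnt6 and 30 and 20 for Wnt11. Their ratios were 3.3 (interval of 1.46 to 8.14), 3.6 (1.34 to 11.2) and 2.02 (1.11 to 3.76). In the edgeR fit with no low-count filter, Wnt2 and Wnt1 passed (adjusted p of 0.0334 and 0.018). Wnt7b, Wnt6 and Wnt11 did not (adjusted p of 0.227, 0.0833 and 0.398). Such low counts set no order among these ligands.

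**Figure D3:**
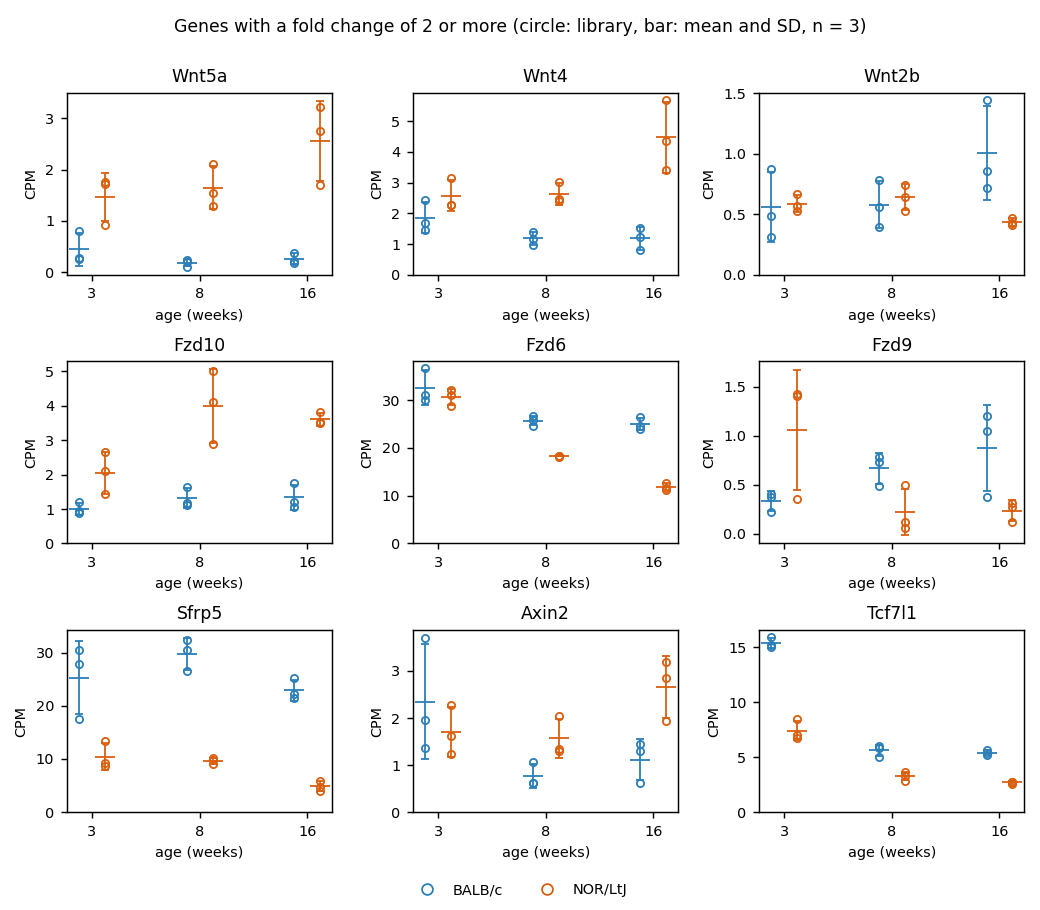
CPM in each library (circles) against age for the 9 genes of the set that passed a strain comparison with a fold change of 2 or more, with the mean and SD of 3 libraries as bars. For Wnt5a, Fzd10, Sfrp5 and Tcf7l1 the strains are apart at each age, whereas for Fzd6 and Wnt4 they part at 8 and 16 weeks.

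Among the 12 receptors and co-receptors, all tested, 1 passed at 3 weeks, 6 at 8 weeks (3 higher, 3 lower) and 8 at 16 weeks (4 higher, 4 lower). Those are 8.33%, 50% and 66.7% of them, beside 15%, 27.8% and 50.9% of all genes. Fzd10, Fzd1, Fzd7 and Fzd2 were higher in NOR glands at the ages where they passed, while Fzd6, Fzd5, Lrp6 and Fzd9 were lower.

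Fzd10 (chr5:128601106-128604093) read 2.64, 1.43 and 2.11 CPM in NOR and 0.93, 0.887 and 1.2 CPM in BALB/c libraries at 3 weeks. At 8 weeks it read 4.1, 5.02 and 2.88 CPM against 1.65, 1.12 and 1.18 CPM, and at 16 weeks 3.52, 3.49 and 3.83 CPM against 1.76, 1.22 and 1.06 CPM. NOR libraries lay above BALB/c libraries throughout. Its log2 fold change was 1.04 ± 0.31, 1.61 ± 0.27 and 1.40 ± 0.26 at 3, 8 and 16 weeks (edgeR adjusted p of 0.0266, 0.000144 and 0.000194). The 3-week call was lost in 4 of 6 fits with 1 library left out (adjusted p up to 0.212) and without parotid-rich libraries, where the log2 fold change was 1.30 (adjusted p = 0.0634).

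Fzd6 (chr15:39006280-39038190), a receptor known for planar polarity, fell stepwise in NOR glands. At 3 weeks it read 31.1, 28.7 and 32.2 CPM in NOR and 30, 31.1 and 36.8 CPM in BALB/c libraries, which overlapped. It then read 18.4, 18.3 and 18.2 CPM against 24.7, 26.7 and 25.8 CPM at 8 weeks, and 11.7, 11.3 and 12.8 CPM against 24.5, 24 and 26.5 CPM at 16 weeks. The NOR libraries were tightly grouped below the BALB/c libraries at both later ages. Its log2 fold change was -0.09 ± 0.09 at 3 weeks (edgeR adjusted p = 0.535), -0.49 ± 0.09 at 8 weeks (adjusted p = 0.000251) and -1.08 ± 0.09 at 16 weeks (adjusted p = 2.09e-08), and both calls held with any 1 library left out.

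Fzd9 (chr5:135248938-135251047) is a receptor that few reads reached in these glands. It read 0.276, 0.118 and 0.319 CPM in NOR and 1.04, 0.38 and 1.2 CPM in BALB/c libraries at 16 weeks, or 3 to 4 reads against 5 to 25. At 8 weeks it read 0.0586, 0.496 and 0.117 CPM against 0.786, 0.489 and 0.733 CPM, and at 3 weeks 0.357, 1.43 and 1.41 CPM against 0.219, 0.403 and 0.38 CPM. Of the 3 ages, the strains were apart at 16 weeks alone, with a log2 fold change of -2.08 ± 0.64 (edgeR adjusted p = 0.0105). This call was lost without NOR replicate 2 (adjusted p = 0.0935), and the higher 3-week readings were those of the 2 parotid-rich NOR libraries. Without parotid-rich libraries the 3-week log2 fold change of Fzd9 was 0.26, where it was 1.57 with them (neither passed), and the 8-week value was -2.87 and passed (edgeR adjusted p = 0.0103).

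Fzd7, a receptor of canonical signalling and of stem cells in several epithelia, read 14.4, 16.6 and 15.9 CPM in NOR and 9.59, 9.44 and 9.47 CPM in BALB/c libraries at 8 weeks. At 16 weeks it read 11.9, 12.3 and 15.3 CPM against 8.55, 8.75 and 10.1 CPM. Its log2 fold change was 0.72 ± 0.10 and 0.51 ± 0.10 (edgeR adjusted p of 3.07e-05 and 0.000409). Fzd1 read 9.67, 11.1 and 9.57 CPM against 5.5, 5.8 and 4.12 CPM at 8 weeks, a log2 fold change of 0.98 ± 0.16, and remained above BALB/c at 16 weeks (0.72 ± 0.16, adjusted p = 0.00111). Fzd2 passed only at 16 weeks (log2 fold change of 0.93 ± 0.33, edgeR adjusted p = 0.0248), which DESeq2 did not call (adjusted p = 0.0655), nor did 3 of 6 fits with 1 library left out.

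Fzd5 was lower by smaller amounts, with log2 fold changes of -0.45 ± 0.15 at 8 weeks and -0.41 ± 0.15 at 16 weeks (edgeR adjusted p of 0.0341 and 0.0325). Each call was lost in 4 of 6 fits with 1 library left out, and the 8-week call also without parotid-rich libraries (log2 fold change of -0.43). The libraries overlapped at 16 weeks, and without NOR replicate 2 the 16-week value was -0.18 (adjusted p = 0.326). Lrp6, a co-receptor that canonical signalling requires, had log2 fold changes of -0.28 ± 0.10 and -0.33 ± 0.10 (adjusted p of 0.0413 and 0.00881), but the 8-week call was lost in 5 of 6 fits with 1 library left out and the 16-week call without NOR replicate 2 (adjusted p = 0.125). Lrp5, Fzd3, Fzd4 and Fzd8 passed at none of the 3 ages.

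Of the 9 genes of the R-spondin arm 4 were tested, and the ubiquitin ligase Rnf43 alone passed a strain comparison. That was 25% of those tested at 16 weeks, beside 50.9% of all genes. Rnf43 read 14.3, 12.7 and 13 CPM in NOR and 21.1, 20.1 and 19.8 CPM in BALB/c libraries at 16 weeks, with no overlap. The log2 fold change was -0.61 ± 0.10 at 16 weeks (edgeR adjusted p = 3.31e-05) after -0.05 at both 3 and 8 weeks. Lgr4, an R-spondin receptor, read 11.4, 10.7 and 11.6 CPM in NOR and 8.86, 8.79 and 8.1 CPM in BALB/c libraries at 3 weeks (log2 fold change of 0.38 ± 0.13, adjusted p = 0.0596), and 7.66, 5.61 and 8.5 CPM against 9.02, 8.07 and 8.74 CPM at 16 weeks (-0.29 ± 0.13, adjusted p = 0.0767). Znrf3, the related ligase, and Rspo3 were tested and did not pass. Rspo4 had no read, Rspo2 had 2 reads in 1 library, and Lgr5 and Lgr6 had 0 to 4 reads a library. At 16 weeks Lgr5 had 10 reads in NOR and 1 in BALB/c libraries, a ratio of 13.5 (95% exact interval of 1.92 to 586, counting error only). Rspo1 had 2, 17 and 6 reads in NOR and 3, 1 and 3 reads in BALB/c libraries at 16 weeks, a ratio of 4.82 on summed reads (95% exact interval of 2.03 to 13.2, counting error only). The edgeR fit with no low-count filter gave log2 fold changes of 3.02 for Lgr5 and 1.9 for Rspo1 (adjusted p of 0.0427 and 0.0373).

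The secreted inhibitors held the largest fall of the set. Sfrp5 (chr19:42197971-42202252), a Wnt antagonist of several epithelia and of fat, read 13.4, 9.31 and 8.61 CPM in NOR and 17.5, 27.9 and 30.4 CPM in BALB/c libraries at 3 weeks. At 8 weeks it read 9.03, 9.73 and 10.2 CPM against 32.4, 26.5 and 30.5 CPM, and at 16 weeks 5.93, 4.04 and 4.78 CPM against 21.4, 25.2 and 22.1 CPM. No NOR library reached any BALB/c library of its age. The log2 fold change was -1.22 ± 0.19, -1.62 ± 0.18 and -2.24 ± 0.20 at 3, 8 and 16 weeks (edgeR adjusted p of 0.00014, 1.92e-06 and 4.59e-08). All 3 calls held with any 1 library left out, whereas at 3 weeks the value without parotid-rich libraries was -0.84 (adjusted p = 0.0905).

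Sfrp1, of the same family, went the other way: it read 24.8, 27.9 and 25.4 CPM in NOR and 12.5, 11.3 and 15.4 CPM in BALB/c libraries at 16 weeks. The log2 fold change was 0.18 at 3 weeks, which did not pass, 0.41 ± 0.12 at 8 weeks (edgeR adjusted p = 0.0123) and 0.99 ± 0.12 at 16 weeks (adjusted p = 1.07e-06). The 8-week call was lost in 3 of 6 fits with 1 library left out (adjusted p up to 0.087) and without parotid-rich libraries (adjusted p = 0.12). Sfrp2, Sfrp4, Dkk2 and Dkk3 were tested and passed at no age. Dkk1 and Dkk4 had no read, and Wif1 had 0 to 7 reads a library. At 8 weeks Wif1 had 3 reads in NOR and 14 in BALB/c libraries, a ratio of 0.218 (95% exact interval of 0.0403 to 0.783, counting error only). Its ratios at 3 and 16 weeks were 0.953 and 0.771. Dkkl1, a relative of the Dkk inhibitors, had 4, 23 and 4 reads in NOR libraries at 16 weeks and 1 read in the 3 BALB/c libraries together, a ratio of 41.8 on summed reads (95% exact interval of 6.97 to 1710, counting error only). The edgeR fit with no low-count filter gave a log2 fold change of 4.49, a smaller difference (adjusted p = 0.000726). NOR replicate 2, which had 23 of those 31 reads, also had the highest T and B cell marker sums (136 and 360 CPM), and the part of lymphocytes in this was not tested.

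Of the transducers, Axin2 was higher and Tcf7l1, Axin1 and Ctnnb1 were lower in NOR glands at 16 weeks. Axin2 (chr11:108920349-108950781), a negative regulator that beta-catenin itself induces, read 1.93, 2.86 and 3.19 CPM in NOR and 0.617, 1.29 and 1.44 CPM in BALB/c libraries. At 8 weeks it read 2.05, 1.3 and 1.35 CPM against 0.629, 0.629 and 1.07 CPM, and at 3 weeks 2.28, 1.62 and 1.23 CPM against 1.37, 3.71 and 1.96 CPM. The strains overlapped at 3 weeks and were apart later. Its log2 fold change was -0.35 ± 0.39, 0.98 ± 0.42 and 1.26 ± 0.37, and only the last passed (edgeR adjusted p of 0.623, 0.0898 and 0.00875). Without parotid-rich libraries, among them the BALB/c library of 3.71 CPM, the 3-week value turned to 0.45 and did not pass. Without BALB/c replicate 1 the 16-week call was lost (log2 fold change of 0.93, adjusted p = 0.0594).

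Tcf7l1 (chr6:72626380-72788956), a factor that mostly represses Wnt targets, read 6.78, 7.03 and 8.43 CPM in NOR and 15, 15.9 and 15.2 CPM in BALB/c libraries at 3 weeks. It read 2.87, 3.66 and 3.29 CPM against 5.03, 5.8 and 6.03 CPM at 8 weeks, and 2.55, 2.78 and 2.76 CPM against 5.65, 5.17 and 5.38 CPM at 16 weeks. The strains never overlapped, while both fell from 3 to 8 weeks. The log2 fold change was -1.07 ± 0.12, -0.79 ± 0.13 and -0.9995 ± 0.13 (edgeR adjusted p of 2.66e-06, 0.000137 and 5.26e-06), and the calls held with any 1 library left out. Exons of Tcf7l1 overlap 84 bases of an antisense gene of the count table, Gm15401. Counting did not use strand and left out reads that overlapped both genes, so such reads counted for neither. In GENCODE, exons on the opposite strand also overlap 20.9% of the exon bases of Ctnnb1, 17.8% of those of Fzd5 and 4.86% of those of Axin2.

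Axin1 was lower by -0.35 ± 0.08 at 8 weeks and -0.27 ± 0.08 at 16 weeks on the log2 scale (edgeR adjusted p of 0.00317 and 0.0115). Ctnnb1 averaged 199 ± 18.2 CPM (SD, n = 3) in NOR and 238 ± 11.2 CPM in BALB/c glands at 16 weeks, a log2 fold change of -0.26 ± 0.09 (adjusted p = 0.02). The 16-week calls were lost in 3 of 6 fits with 1 library left out for Axin1 and in 4 of 6 for Ctnnb1, without NOR replicate 2 among them (adjusted p of 0.126 and 0.136). Tcf7l2 passed at no age.

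The next question was whether these differences came with change in NOR or in BALB/c glands. From 3 to 8 weeks 8 of the 33 genes passed in BALB/c glands (24.2%, beside 27.9% of all genes), and all 8 fell, beside 14.1% of all genes that fell and 13.8% that rose. They were Tcf7l1 (log2 fold change of -1.44 ± 0.12), Znrf3 (-1.52 ± 0.30), Axin2 (-1.52 ± 0.41), Fzd2 (-1.17 ± 0.36), Fzd4 (-0.77 ± 0.26), Fzd7 (-0.74 ± 0.10), Fzd6 (-0.34 ± 0.08) and Lrp5 (-0.24 ± 0.09). Axin2, Znrf3 and Fzd7 are widely used as targets or receptors of canonical signalling, and leaving out the parotid-rich libraries left 5 genes. In NOR glands 8 genes passed over the same step (24.2%, beside 33.8%): Tcf7l1 (-1.16 ± 0.13), Znrf3 (-1.42 ± 0.30), Fzd9 (-2.12 ± 0.67), Fzd6 (-0.74 ± 0.09) and Lgr4 (-0.55 ± 0.13) fell, and Fzd10 (0.94 ± 0.27), Fzd1 (0.68 ± 0.17) and Sfrp1 (0.55 ± 0.12) rose. Without parotid-rich libraries, which leaves 1 NOR library at 3 weeks, the falls were -1.18 (Tcf7l1), -1.06 (Znrf3), -1.97 (Fzd9), -0.81 (Fzd6) and -0.62 (Lgr4). The rises were 0.36 (Fzd10), 0.43 (Fzd1) and 0.28 (Sfrp1). Of these genes only Tcf7l1 and Fzd6 kept their call, and Rnf43 (-0.43) and Rspo3 (2.095) were called in that fit alone. Axin2, Fzd2, Fzd4, Fzd7 and Lrp5, which fell in BALB/c glands, did not pass in NOR glands. Lrp5 changed there by a similar amount (-0.22 ± 0.09). Of these genes, the change in strain difference passed its own test for Fzd7 alone. In BALB/c glands Axin2, Fzd4 and Lrp5 were not among the genes left without the parotid-rich libraries. The log2 fold change of Axin2 was then -1.065.

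From 8 to 16 weeks none of the 33 genes passed in BALB/c glands in edgeR or in DESeq2 (1.76% of all genes did in edgeR), and 1 had an unadjusted p under 0.05. In NOR glands 11 passed over this step (33.3%, beside 36.9%). Wnt4 (0.80 ± 0.24), Dkk3 (0.80 ± 0.28) and Sfrp1 (0.53 ± 0.11) rose. The 8 that fell were Sfrp5 (-0.997 ± 0.21), Fzd6 (-0.63 ± 0.09), Fzd3 (-0.59 ± 0.17), Fzd8 (-0.48 ± 0.18), Rnf43 (-0.45 ± 0.10), Fzd7 (-0.26 ± 0.10), Lrp5 (-0.24 ± 0.09) and Ctnnb1 (-0.23 ± 0.09). The split of 3 higher (18.5% of all genes) and 8 lower (18.4%) became 3 and 4 with DESeq2 size factors, and also with TMM factors computed without the 20 most abundant genes. Without NOR replicate 3 of 8 weeks the count was 5, and without parotid-rich libraries 6.

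A direct test of the change in strain difference was passed by 1 gene between 3 and 8 weeks (3.03%, beside 3.76% of all genes), 3 between 8 and 16 weeks (9.09%, beside 7.97%) and 9 between 3 and 16 weeks (27.3%, beside 24.9%). Over the whole span the difference moved up for Axin2 (1.61 ± 0.54 log2 units), Wnt4 (1.496 ± 0.38), Sfrp1 (0.81 ± 0.17) and Fzd7 (0.69 ± 0.15). It moved down for Fzd9 (-3.65 ± 0.90), Sfrp5 (-1.01 ± 0.28), Fzd6 (-0.99 ± 0.12), Lgr4 (-0.67 ± 0.19) and Rnf43 (-0.56 ± 0.14). Fzd7 was the gene that passed between 3 and 8 weeks (0.90 ± 0.15), and between 8 and 16 weeks Sfrp1 moved up (0.57 ± 0.16) and Fzd6 (-0.59 ± 0.12) and Rnf43 (-0.56 ± 0.13) moved down. Without parotid-rich libraries the 3 counts were 0, 0 and 4, beside 0.601%, 1.64% and 11.2% of all genes in that fit. Of the 9 genes over the whole span, Fzd6, Fzd7, Rnf43 and Sfrp5 still passed. Axin2 (0.82, adjusted p = 0.372 in edgeR), Fzd9 (-2.33, adjusted p = 0.154), Wnt4, Sfrp1 and Lgr4 did not. Without NOR replicate 2 of 16 weeks the count between 8 and 16 weeks was 0.

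**Figure D4:**
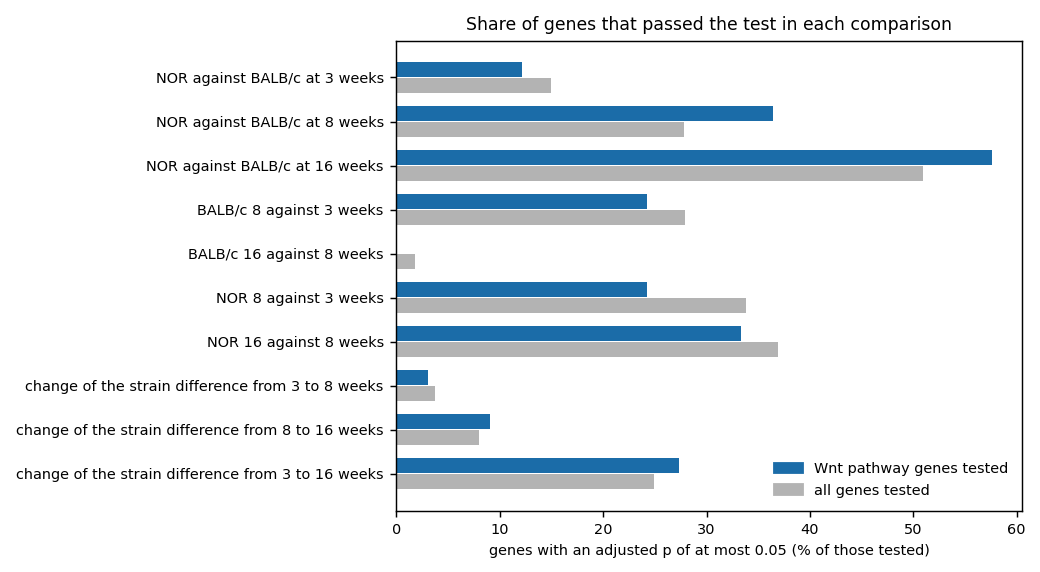
Percent of tested genes with an adjusted p of at most 0.05 in each of the 10 comparisons, for the 33 Wnt pathway genes and for all 13376 genes. The bars run close together, from 0% beside 1.76% (BALB/c, 16 against 8 weeks) to 57.6% beside 50.9% (strains at 16 weeks).

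A list of 50 further genes of the pathway, outside the rule and also chosen with earlier results known, held 42 that could be tested. Of these 10 passed at 3 weeks (5 higher, 5 lower), 10 at 8 weeks (7 higher, 3 lower) and 21 at 16 weeks (8 higher, 13 lower), or 23.8%, 23.8% and 50%, beside 15%, 27.8% and 50.9% of all genes. Of the 9 tested genes of the dishevelled and destruction complex 5 passed at 16 weeks (55.6%), all of them lower in NOR glands, where 25.4% of all genes were lower: Dvl1, Dvl3, Apc, Gsk3b and Csnk1a1, with log2 fold changes of -0.59 to -0.32. Without the parotid-rich libraries 4 genes of the list passed at 3 weeks.

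The nuclear partners of beta-catenin Tcf7 and Lef1, which T cells also express strongly, had the largest log2 fold changes of the list. Tcf7 read 8.69, 19.4 and 15.2 CPM in NOR and 0.427, 0.533 and 0.432 CPM in BALB/c libraries at 16 weeks (log2 fold change of 4.97 ± 0.33, edgeR adjusted p = 1.86e-09). Lef1 had 15, 56 and 21 reads in NOR and 0, 1 and 2 reads in BALB/c libraries (adjusted p = 1.06e-05). Replicates 2 and 3, with the higher Tcf7 and Lef1, also had the higher T cell marker sums (136 and 89.9 CPM, beside 55.5 CPM in replicate 1), and the part of T cells in these values was not tested.

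Other genes of the list that changed by 2-fold or more were spread over its branches. Tnfrsf19, a target of canonical signalling, was higher at 8 and 16 weeks (log2 fold changes of 2.13 ± 0.20 and 1.79 ± 0.22), as was the corepressor Tle4 at 16 weeks (1.82 ± 0.26). Ccnd1, which encodes cyclin D1, was lower at both ages (-1.01 ± 0.13 and -1.05 ± 0.13), as was the polarity receptor Ptk7 (-1.02 ± 0.17 and -1.59 ± 0.17). Porcn, the acyltransferase that lipid-modifies Wnt ligands for secretion, was lower at 16 weeks (-1.39 ± 0.38). Gpc4, a proteoglycan of the cell surface, was higher at 3 weeks (1.08 ± 0.33) and Prickle2, of planar polarity, was lower (-1.35 ± 0.41).

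**Figure D5:**
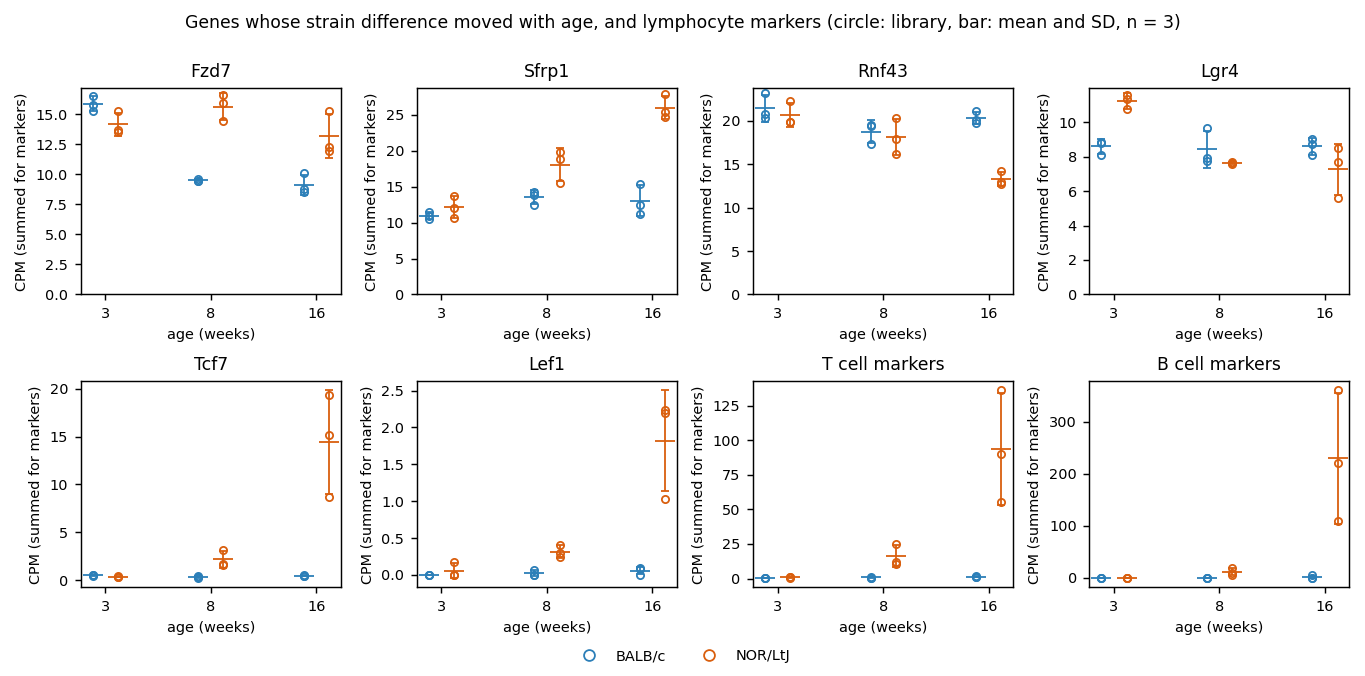
CPM in each library (circles) against age, with the mean and SD of 3 libraries, for Fzd7, Sfrp1, Rnf43 and Lgr4, whose strain difference moved with age, for Tcf7 and Lef1, and for the summed T cell and B cell markers. NOR libraries at 16 weeks read 24.8 to 27.9 CPM for Sfrp1, and their T cell markers sum to 55.5 to 136 CPM.

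Other marker lists gave these values. Acinar markers summed to 4760 to 8170 CPM in NOR and 2780 to 3420 CPM in BALB/c glands at 16 weeks, where 1 of 5 was higher and 2 were lower. Of 6 myoepithelial markers 5 were tested, and 4 of these were higher in NOR glands at 8 weeks and 2 at 16 weeks, with summed levels of 186 to 220 CPM in NOR and 130 to 143 CPM in BALB/c glands at 8 weeks. Fibroblast markers summed to 521 to 600 CPM in NOR and 499 to 603 CPM in BALB/c glands at 16 weeks. Of 5 ductal markers 3 were lower in NOR glands at 16 weeks (387 to 539 against 472 to 546 CPM). Endothelial markers summed to 41.3 to 62.1 CPM in NOR and 31 to 36.7 CPM in BALB/c glands at 16 weeks, macrophage markers to 93.6 to 120 and 57.4 to 64.4 CPM, adipocyte markers to 10.4 to 18.7 and 8.29 to 9.75 CPM, and nerve markers to 35.7 to 38 and 29.1 to 34.4 CPM. At 16 weeks 1 of 5 endothelial, 2 of 4 tested macrophage and 1 of 5 adipocyte markers passed as higher and none as lower. No nerve marker passed. Skeletal muscle markers summed to 3.08 to 18.3 CPM in NOR and 27.4 to 168 CPM in BALB/c glands at that age. The part of these cell types in the Wnt pathway differences was not tested.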

How the data were processed

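RNA-seq was run on 18 LG libraries, 3 for each strain and age. The authors prepared stranded mRNA libraries, aligned single reads to mm10 with HISAT2 and counted reads over exons per gene with featureCounts 1.6.2 and a UCSC mm10 annotation, and the deposited values are raw counts. Per the file headers, no strand option was set and multi-mapping and overlapping reads were not counted.

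Counts were fitted in R 4.3.3 with edgeR 4.0.16 (TMM factors, filterByExpr by group with its minimum count of 10, quasi-likelihood F-test, 1 mean per group, all 18 libraries). Standard errors were derived from the F statistics. P-values were adjusted by Benjamini-Hochberg over 13376 genes. The threshold was an adjusted p of 0.05. Changes of 2-fold or more, which is the cutoff the study used, are named as such. The fit was tested on simulated data. Depth was 6378613 to 20493076 counts, so 3 reads correspond to 0.118 to 0.527 CPM in a library. Libraries, and not all of them single mice, are the replicates, and p-values measure the spread between them.

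The 55 genes, the list of 50 further pathway genes and the 12 marker lists were chosen with earlier results of these data known. Genes of the set that passed a strain comparison with a fold change of 2 or more are given in every library, others that passed any comparison are given with statistics, and untested ones with counts. Ratios of untested genes use summed raw counts over raw library totals, without TMM factors, with exact 95% intervals. TMM factors at 16 weeks were 1.063 to 1.44 in NOR and 1.027 to 1.095 in BALB/c libraries. Ratios at that age therefore lie higher than fold changes of the fit. For Ctnnb1 the ratio was 0.997 and the fold change 0.836. Alternatives were DESeq2 1.42.0, other size factors and filters, fits of the compared groups only, a replicate block, a fold cutoff, each library left out, and, chosen after seeing the data, leaving out 4 libraries whose 5 parotid markers exceeded 10000 CPM. Samples were not treated as paired by replicate number. Deviations of same-numbered libraries correlated from -0.362 to 0.395 over 21 pairs. Of these pairs 10 exceeded 0.1, and in no comparison did every pair do so. Whether same-numbered libraries shared a dissection or batch cannot be told from these correlations. Promoters came from RefSeq, and overlaps of exons from the count table and GENCODE. Figures were drawn with matplotlib 3.10.9.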

Additional observations from a re-analysis of the deposited data

Results flagged for a closer look

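The strain difference in log2 fold change (NOR over BALB/c) moved with age for the genes below, by edgeR's quasi-likelihood test of the change itself with Benjamini-Hochberg adjustment over all genes. Each value is the later difference minus the earlier one.

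Between 3 and 8 weeks it moved by 0.895 ± 0.145 (SE) for the receptor Fzd7 (adjusted p = 0.00159), by 3.15 for Tcf7 (adjusted p = 0.0171) and by 1.22 for Tnfrsf19 (adjusted p = 0.0172). Fzd7 fell in BALB/c glands over this step, from 15.3 to 16.5 CPM at 3 weeks to 9.44 to 9.59 CPM at 8 weeks, while NOR libraries read 13.5 to 15.3 CPM and then 14.4 to 16.6 CPM. Between 8 and 16 weeks it moved by -0.56 for Rnf43 (adjusted p = 0.0186), -0.59 for Fzd6 (adjusted p = 0.0101), 0.57 for Sfrp1 (adjusted p = 0.0395) and 2.31 for Tcf7 (adjusted p = 0.0325).

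Between 3 and 16 weeks the change was 0.69 for Fzd7 (adjusted p = 0.00269), -0.56 for Rnf43 (adjusted p = 0.0064), 1.61 for Axin2 (adjusted p = 0.0355), -0.99 for Fzd6 (adjusted p = 5.29e-05) and -1.01 for Sfrp5 (adjusted p = 0.0127). It was -0.67 for Lgr4 (adjusted p = 0.0145), 1.496 for Wnt4 (adjusted p = 0.00914), -3.65 for Fzd9 (adjusted p = 0.00724) and 0.81 for Sfrp1 (adjusted p = 0.00269). Among further pathway genes it was -0.71 for Ptk7 (adjusted p = 0.0359), 5.46 for Tcf7 (adjusted p = 4.56e-05), 1.45 for Tle4 (adjusted p = 0.0146) and 0.87 for Tnfrsf19 (adjusted p = 0.0331). Without parotid-rich libraries 0, 0 and 4 genes of the set passed over the 3 spans, and the part of lymphocytes and of pooling in these changes was not tested.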

How the results depend on the processing

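Calls rested on 3 libraries a group, 6378613 to 20493076 counts each, and ligands with a few reads a library were at the limit of that depth. Of 35 named strain differences that passed, all kept their direction and call with DESeq2 size factors, TMM factors without the 20 most abundant genes and no low-count filter. DESeq2 lost 2, fits of the compared groups only 3 of 34, and the replicate block 1, Lrp6 at 8 weeks (adjusted p = 0.0562). Over the fits with 1 library left out, 40 of 210 such calls were lost. Samples were not treated as paired by replicate number in the main fit. With the block the 10 counts of the set were 4, 11, 20, 8, 0, 8, 9, 1, 2 and 9, in the order of the report. The other scalings moved the median of all genes by less than 0.1 on the log2 scale.

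With a 2-fold cutoff the set's counts became 4 at 8 weeks, 8 at 16 weeks, 4 and 3 for BALB/c and NOR from 3 to 8 weeks, 0 for NOR from 8 to 16 weeks, and 0, 0 and 4 for the changes in strain difference; those of the further genes became 2, 5 and 7. Without the 4 parotid-rich libraries, chosen after seeing the data, they were 1 at 3 weeks, 5 and 4 from 3 to 8 weeks, 6 for NOR from 8 to 16 weeks, 0, 0 and 4 for the changes, and 4 for the further genes at 3 weeks. The count for NOR from 8 to 16 weeks was 7 with either other scaling and in the fit of those groups only, where BALB/c gave 1. The change from 3 to 8 weeks was passed by 2 genes with no filter and with DESeq2, and by 4 in the fit of those groups. The cause of these shifts was not tested.

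With 1 library left out, the counts ran from 3 to 4, 9 to 12 and 12 to 21 for strains at 3, 8 and 16 weeks, the lowest without NOR replicate 2 of 16 weeks. They ran from 5 to 7 and 0 to 0 for the BALB/c steps (5 without replicate 2 of 3 weeks), 7 to 8 and 5 to 11 for the NOR steps, 1 to 2, 0 to 4 and 6 to 12 for the changes, and 5 to 9, 6 to 11 and 18 to 25 for the further genes. Directions turned only where the strain difference had not passed. Without parotid-rich libraries at 3 weeks these were Wnt9a (0.27), Rnf43 (0.0151), Axin2 (0.45), Axin1 (0.0479) and Wnt2b (-0.10). With 1 library left out at 3 weeks they were Fzd5 (-0.0438 to 0.13), Wnt9a (-0.20 to 0.14), Rnf43 (-0.12 to 0.0103), Fzd2 (-0.19 to 0.0507), Axin2 (-0.65 to 0.11), Fzd6 (-0.16 to 0.00063), Axin1 (-0.10 to 0.0352) and Wnt2b (-0.24 to 0.59), and at 8 weeks Wnt9a (-0.18 to 0.19), Rnf43 (-0.16 to 0.0026) and Wnt2b (-0.0677 to 0.43).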
